A study of Mus musculus with 13 samples.

Results

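Cochlear cells sorted for high CD271, the neurotrophin receptor encoded by Ngfr, were compared with hair cells, the sensory cells of the organ of Corti. The comparison took the 3 arrays of GFP-negative cells with high CD271 (CD271high A to C) and the 4 arrays of GFP-positive cells (HC A to D), chosen by their sample titles, out of 13 arrays in the series. All 13 hold RNA of cells sorted by flow cytometry from cochleae of 3-day-old C57BL6 mice carrying Math1-nGFP, a reporter in which an enhancer of Math1 (Atoh1) drives nuclear GFP in hair cells. The HC gate rests on GFP alone. The CD271high gate rests on the absence of GFP and on high CD271, and its title names no step on CD146 or CD326, the surface proteins used for the other GFP-negative gates. The labels call these cells macrophages and, in the titles, suspected ones. The other arrays held cells of the greater epithelial ridge (GER, 3 arrays) and cells titled Deiters' and Claudius cells (DC, 2 arrays). Cells below the basilar membrane (BM) had 1 array. GER and DC entered the fit through its estimate of the spread, to which the single BM array adds nothing. All of them also entered the normalization, the filter on dim probes and the choice of probe. The labels do not say whether replicates came from separate animals or how many animals were pooled, so the p-values measure only how these arrays vary, and that variation may be technical.

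Macrophages are phagocytes of the myeloid lineage that depend on the receptor Csf1r and the transcription factor PU.1. In the cochlea they lie in the spiral ganglion, the lateral wall and below the basilar membrane, where they take up cell debris. Hair cells turn movement of their stereocilia into a receptor current, release glutamate at ribbon synapses and depend on the transcription factors Atoh1, Pou4f3 and Gfi1. In bulk samples such as these, fewer cells of a type and less RNA per cell cannot be told apart.

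Levels are log2 intensities after background correction and quantile normalization over the 13 arrays, and a difference is the CD271high mean minus the HC mean with its standard error (SE, n = 3 against 4). A gene was called where its adjusted p from limma, with Benjamini-Hochberg adjustment over 10088 genes, was under 0.05. The 7 arrays had median raw intensities of 280.43 to 323.92, which did not separate the groups. The share of probes detected was 40.25% to 44.18% on the HC arrays and 44.1% to 45.21% on the CD271high arrays. Correlations between arrays over all genes were 0.979 to 0.983 among the CD271high arrays and 0.959 to 0.983 among the HC arrays, where the lowest values, 0.959 to 0.969, all involved HC D. Between the groups they were 0.749 to 0.792. The arrays lay on 2 beadchips, with CD271high B and C beside HC A on the first (beadchip 1) and CD271high A beside the remaining HC arrays on the second (beadchip 2), so that each comparison could also be made within each beadchip. Each beadchip holds a single array of one group. Within beadchip 2 the spread comes from HC B to D alone, with 2 residual degrees of freedom, and so includes HC D. A call lost within a beadchip therefore cannot tell fewer arrays from an effect of the beadchip.

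The RNA of Ngfr was not highest in the CD271high gate. Ngfr stood at 10.68, 10.54, 10.19 and 11.04 on HC A to D and 8.82, 8.66 and 9.53 on CD271high A to C, a difference of -1.61 ± 0.29 (adjusted p = 5.7e-04). All 3 CD271high arrays lay below all 4 HC arrays, whose gate has no step on CD271. In the gates titled CD271L, Ngfr had means of 9.82 in GER and 12.49 in DC. It read 9.21 on the BM array, against a mean of 9.01 in CD271high cells. The sort was on surface protein, which the arrays do not measure, and the cells are named here by their gate. Atoh1, whose enhancer drives the reporter, stood at 6.43, 5.94, 7.74 and 7.21 on HC A to D and 5.66, 5.22 and 5.28 on CD271high A to C and was detected on 2 HC arrays and no CD271high array. It was lower in CD271high cells (adjusted p = 0.0036, or 0.24 within beadchip 2), but its bound was 0.0018 on the log2 scale, so that no fold is given. Mcam, which encodes CD146, differed by 0.51 ± 0.22 (adjusted p = 0.066) and passed at 0.0027 without HC D, where it was 0.72.

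Over all genes, 5551 of 10088 (55%) passed the test, 2858 of them (28.3%) higher and 2693 (26.7%) lower in CD271high cells. At least 2-fold differences were found for 1717 genes (17%) that were higher and 1499 (14.9%) that were lower. At least 8-fold differences were found for 309 (3.06%) and 339 (3.36%) genes, and at least 32-fold differences for 56 (0.555%) and 102 (1.01%). The array values of the groups did not overlap for 5512 genes (54.6%), 2793 of them (27.7%) higher and 2719 (27%) lower. The median difference over all genes was -0.0051. Of the higher genes, 585 had no detected probe on any HC array, and of the lower genes 553 had none on any CD271high array. For such genes the difference rests on the background, and a bound written as "at least N-fold" is given in place of a fold.

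**Figure D1:**
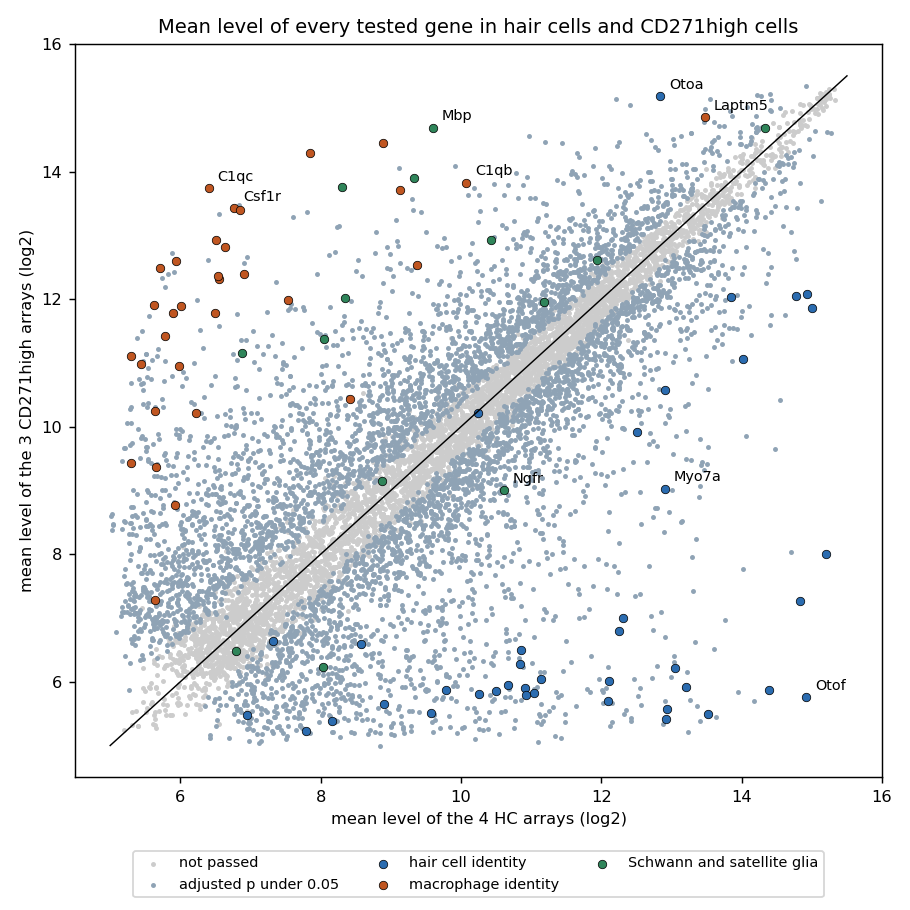
Mean log2 level of each of the 10088 genes on the 4 HC arrays (x axis) and the 3 CD271high arrays (y axis), with the hair cell, macrophage and Schwann cell lists in colour and all other genes in grey. The macrophage list lies above the diagonal and most of the hair cell list below it.

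Macrophage identity genes were higher in CD271high cells. Of 36 listed genes 32 were tested and 32 were called higher, with a median difference of 5.55, or 4.63 with undetected genes at their bound, against -0.0051 over all genes. The other 4, among them Itgam, Ptprc and Cybb, did not pass the filter on dim probes. Of the 32, 17 were detected on no HC array and entered the test through arrays where they are high, so the count is a description. Counts of the lists below that hold such genes are descriptions too. Over all genes the shares were 28.3% higher and 26.7% lower. C1qc, a subunit of the complement protein C1q, had the largest positive difference of the named genes. It read 6.47, 5.64, 6.04 and 7.45 on HC A to D and 13.87, 13.47 and 13.87 on CD271high A to C. The CD271high arrays lay close together, and HC D was the highest of the HC arrays. Its difference was 7.34 ± 0.35, or 161-fold (adjusted p = 6.2e-09). Csf1r, the receptor for the growth factors Csf1 and Il34, read 6.74, 6.64, 5.97 and 7.73 on HC A to D and 13.38, 13.33 and 13.57 on CD271high A to C. It differed by 6.66 ± 0.38 (adjusted p = 2.8e-08), again with HC D above the other hair cell arrays. Fcgr3, an Fc receptor for IgG, was detected on no HC array and read 12.52, 12.64 and 12.30 on CD271high A to C, at least 41.3-fold higher (adjusted p = 3.3e-11).

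Further leading genes belong to the same phagocyte repertoire. Lyz2, lysozyme, differed by 6.66 ± 0.33 and Fcer1g, the shared signalling chain of Fc receptors, by 6.54 ± 0.39 (adjusted p = 7.2e-09 and 3.9e-08). Ms4a6d, a membrane protein of myeloid cells, was at least 48.4-fold higher. Cx3cr1, the fractalkine receptor, was at least 56.0-fold higher. Pld4, an endolysosomal nuclease, was at least 39.4-fold higher, and Cd68, a lysosomal membrane protein, at least 27.5-fold higher. Ccl4, a chemokine, was at least 33.7-fold higher and P2ry13, a receptor for ADP, at least 37.1-fold higher, with adjusted p of 5.1e-09 and 8.3e-10. None of these 6 with a bound was detected on any HC array. The list passed 32 of 32 in a fit with a term for the beadchip, 31 within beadchip 1, 32 within beadchip 2 and 32 without HC D.

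**Figure D2:**
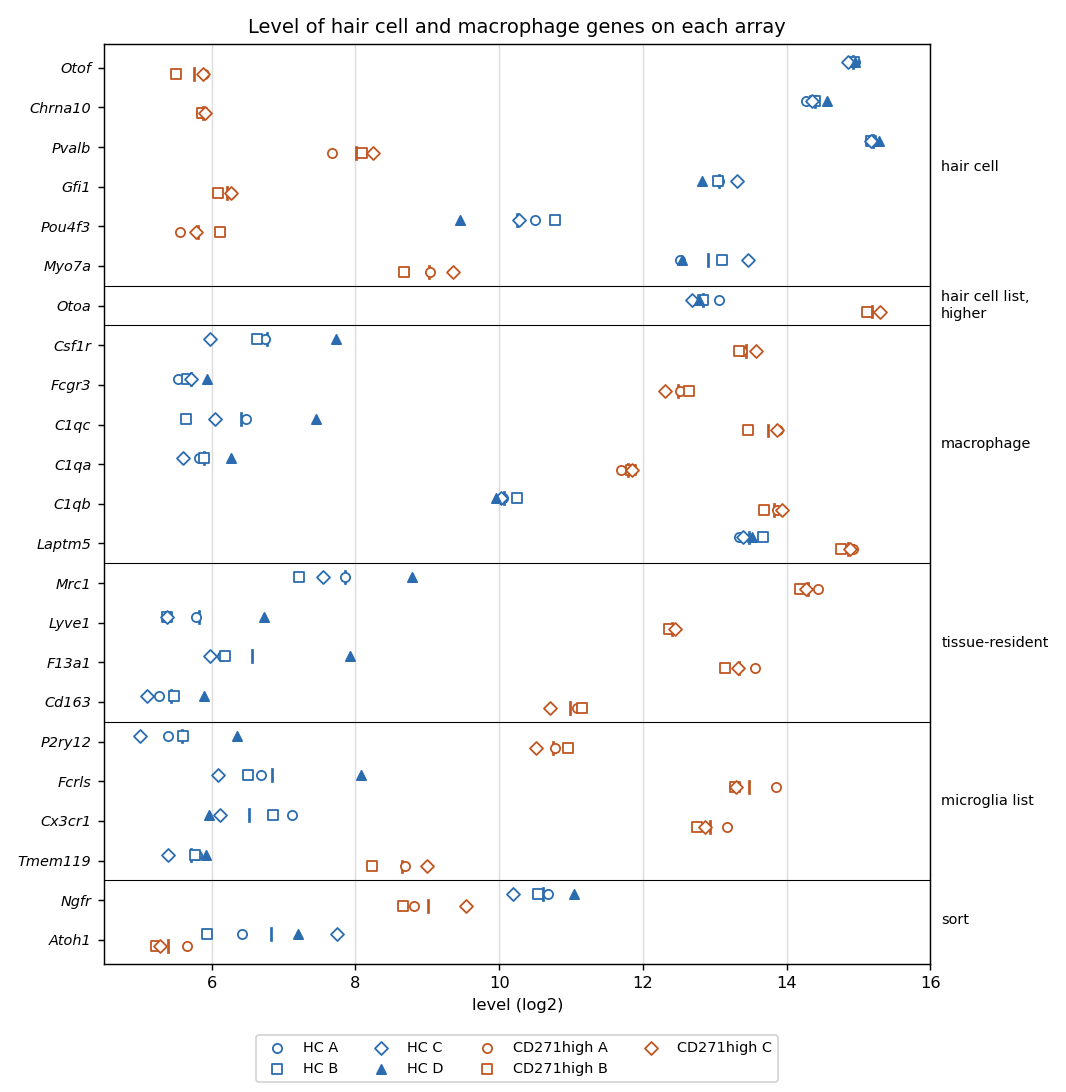
Log2 level (x axis) of hair cell, macrophage and sort marker genes on each array, 1 symbol per array, with HC in blue (HC D filled) and CD271high in orange and a short line at each group mean. Leading macrophage genes separate without overlap, which was a condition for choosing those with the largest differences. Over all genes 54.6% did not overlap. Otoa, of the hair cell list, is higher in CD271high cells.

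The promoters of 4 leading macrophage genes and of 1 leading hair cell gene are shown because genes that moved together can be read against letters known from their lineage. Each window runs from 250 bases before to 50 after the start of transcription (RefSeq, GRCm38.p6). GAGGAA, the core of sites bound by PU.1, was searched on both strands, as was CAGCTG, an E-box of the type bound by Atoh1, which reads the same on both strands. A match of one motif can share its end base with a match of the other. Capitals mark GAGGAA or its reverse complement in the first 4 and CAGCTG in the last. The windows are chr4:136892865-136893164 (minus strand), chr3:87263475-87263774 (minus), chr3:59210833-59211132 (minus), chr2:14229164-14229463 (plus) and chr2:73580289-73580588 (minus).
C1qc: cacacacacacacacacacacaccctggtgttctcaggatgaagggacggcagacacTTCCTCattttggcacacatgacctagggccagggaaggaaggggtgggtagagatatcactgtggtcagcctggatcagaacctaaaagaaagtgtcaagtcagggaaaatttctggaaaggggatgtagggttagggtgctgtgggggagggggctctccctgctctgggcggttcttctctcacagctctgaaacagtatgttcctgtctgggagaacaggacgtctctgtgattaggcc
Fcrls: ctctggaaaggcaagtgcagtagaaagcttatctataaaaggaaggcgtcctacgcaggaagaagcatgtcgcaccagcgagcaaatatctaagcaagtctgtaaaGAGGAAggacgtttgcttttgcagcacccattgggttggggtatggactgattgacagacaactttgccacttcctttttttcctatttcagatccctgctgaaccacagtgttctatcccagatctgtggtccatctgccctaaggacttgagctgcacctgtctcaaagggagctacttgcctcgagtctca
P2ry13: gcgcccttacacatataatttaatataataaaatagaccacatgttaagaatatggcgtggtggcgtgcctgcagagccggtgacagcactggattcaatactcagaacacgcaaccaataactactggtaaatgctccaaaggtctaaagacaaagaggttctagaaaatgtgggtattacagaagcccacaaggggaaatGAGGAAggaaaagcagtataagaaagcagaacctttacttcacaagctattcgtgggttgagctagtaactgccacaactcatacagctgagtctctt
Mrc1: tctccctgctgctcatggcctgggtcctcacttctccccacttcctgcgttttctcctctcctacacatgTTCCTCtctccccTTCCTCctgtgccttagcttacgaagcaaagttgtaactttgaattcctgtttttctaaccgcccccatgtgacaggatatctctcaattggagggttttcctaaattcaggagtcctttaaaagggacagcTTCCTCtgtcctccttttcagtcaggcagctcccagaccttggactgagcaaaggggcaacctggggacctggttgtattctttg
Chrna1: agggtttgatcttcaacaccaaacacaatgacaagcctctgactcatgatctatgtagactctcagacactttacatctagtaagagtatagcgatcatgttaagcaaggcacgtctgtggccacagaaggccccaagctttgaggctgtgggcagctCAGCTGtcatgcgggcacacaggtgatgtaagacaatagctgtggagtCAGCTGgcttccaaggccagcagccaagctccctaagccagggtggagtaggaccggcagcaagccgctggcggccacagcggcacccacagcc

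Of the 15 genes with the largest positive difference 10 had a promoter in the table, and 7 of these held GAGGAA. Of the 15 with the largest negative difference 9 had one, and 1 held CAGCTG. Among 7602 tested genes with a promoter, 30.7% held GAGGAA in at least 1 window, or 26.7% of 9867 windows of the same length. Among 212 genes at least 8-fold higher in CD271high cells the share was 50%, and 45.8% of their windows. Among 226 genes at least 8-fold lower it was 29.2%, and 26% of windows. CAGCTG was in 18.5% of all genes, 26.4% of the higher and 27% of the lower genes. The GC content of the windows was 60.4% over all genes, 54.2% in the higher and 58.9% in the lower genes, and its part in these shares was not tested. A match describes the letters and is no binding site.

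Several macrophage genes had a clear signal on the HC arrays too. Laptm5, a protein of lysosome membranes in leukocytes, read 13.33, 13.67, 13.39 and 13.52 on HC A to D and 14.93, 14.76 and 14.88 on CD271high A to C, and 8.03 and 9.83 in the means of GER and DC. It was higher in CD271high cells by 1.38 ± 0.33 (adjusted p = 0.0036), a difference that within beadchip 1 was 1.49 with an adjusted p of 0.099. C1qb, a C1q subunit, read 10.05, 10.24, 10.03 and 9.96 on HC A to D and 13.86, 13.68 and 13.93 on CD271high A to C, against 5.23 in GER and 6.39 in DC. The 4 HC arrays lay close together and all detected it, and the difference was 3.76 ± 0.36 (adjusted p = 2.6e-06). The other C1q subunits were near background in hair cells, with C1qa at 5.82, 5.89, 5.60 and 6.27 on HC A to D and detected on none of them, at least 25.4-fold below CD271high cells, and C1qc detected on HC D alone. Fcna, a secreted lectin, showed the same arrangement as C1qb, with 9.03, 8.76, 8.92 and 8.83 on HC A to D, 11.73, 10.99 and 11.16 on CD271high A to C, and 5.38 and 5.45 in GER and DC. Cd79b, a B cell receptor chain, read 8.27, 7.57, 7.47 and 7.89 on HC A to D and 9.26, 9.34 and 9.47 on CD271high A to C, and 5.63 and 5.58 in GER and DC. HC D was not the highest HC array for Laptm5, C1qb, Fcna or Cd79b. These 4 genes were looked at for their level in hair cells after the values were seen.

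Genes of resident and perivascular macrophages were higher as well, 15 of 15 tested, with a median of 5.03 (3.86 at the bound). Of the 15, 6 were detected on no HC array. F13a1, a transglutaminase of the coagulation system, read 6.14, 6.19, 5.98 and 7.92 on HC A to D and 13.55, 13.14 and 13.32 on CD271high A to C. HC A to C lay together near background and HC D stood above them, and the difference was 6.78 ± 0.42 (adjusted p = 5.9e-08). Mrc1, the mannose receptor, read 7.86, 7.21, 7.54 and 8.78 on HC A to D and 14.43, 14.19 and 14.27 on CD271high A to C and differed by 6.44 ± 0.33, or 87.1-fold. Lyve1, a hyaluronan receptor, was detected on no HC array and was at least 38.8-fold higher. Stab1, a scavenger receptor, differed by 5.67 ± 0.32, Pf4, a chemokine, by 5.56 ± 0.48, and Cd163, the receptor for haemoglobin with haptoglobin, was at least 14.5-fold higher. Adjusted p was 2.5e-08 for Stab1, 1.1e-06 for Pf4 and 4.3e-10 for Cd163. The list passed 14 of 15 within beadchip 1 and 15 of 15 within beadchip 2 and without HC D.

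The microglia signature moved less evenly, with 13 of 16 tested genes higher, 2 lower and 1 not passing (median 4.18, or 3.41 at the bound). Fcrls, a receptor-like protein of microglia, read 6.69, 6.51, 6.09 and 8.08 on HC A to D and 13.85, 13.29 and 13.29 on CD271high A to C and differed by 6.64 ± 0.42. P2ry12, an ADP receptor, was at least 12.4-fold higher, Trem2, a lipid receptor of phagocytes, at least 27.2-fold and Ccl3, a chemokine, at least 20.8-fold. Tmem119, a membrane protein used to mark microglia, read 8.70, 8.24 and 8.99 on CD271high A to C and was at least 2.87-fold higher. The 2 lower genes were Sall1, a transcription factor of microglia, 8.39-fold lower, and Olfml3, a secreted glycoprotein, 5.14-fold lower (adjusted p = 3.9e-07 and 8.7e-07). Sall1 read 10.42, 10.52, 9.75 and 9.91 on HC A to D and 6.66, 7.48 and 7.11 on CD271high A to C, so the hair cells were all above the CD271high arrays. Siglech, a lectin, did not pass (0.61 ± 0.41, adjusted p = 0.23) but did without HC D (0.97, adjusted p = 0.027).

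Markers of other leukocytes were mostly below the filter on dim probes. Of 19 monocyte and neutrophil genes on the array 13 were filtered, among them Ly6c1, Ccr2, Mpo and Elane. Of the 6 tested, 4 were called higher, 3 of them detected on no HC array. Csf3r, the G-CSF receptor, had a bound of at least 1.14-fold and S100a9, a calprotectin subunit, of at least 1.12-fold, with adjusted p of 2.7e-05 and 0.024. Plac8 (adjusted p = 0.0055, or 0.28 within beadchip 2) was detected on 1 CD271high array and has no bound above 1-fold. Camp, cathelicidin, differed by 1.83 ± 0.54, and within beadchip 1 by 0.52 (adjusted p = 0.61). Camp lost its call without CD271high A or B (adjusted p up to 0.065). S100a9 lost it without HC B, HC C, CD271high B or CD271high C (adjusted p up to 0.11), within beadchip 2 (adjusted p = 0.23) and with a term for the beadchip (0.059). S100a8, the other calprotectin subunit, varied within the group, with 6.09, 9.15 and 9.09 on CD271high A to C, and did not pass (adjusted p = 0.081). Of 18 genes of T, B, NK and mast cells on the array 15 were filtered, including Cd3e, Cd79a, Ms4a1 and Nkg7. The 3 tested were higher: Cd79b by 1.56 ± 0.19, Lck, a T cell kinase, by 0.55 ± 0.21, and Cpa3, a mast cell protease, with an adjusted p of 0.0058. Lck lost its call without any of HC A, B, D or CD271high B, C (adjusted p up to 0.17), and within beadchip 2 it was 0.16 (adjusted p = 0.78). Cpa3 was detected on no HC array and has no bound above 1-fold. It read 7.60, 8.11 and 5.37 on CD271high A to C, so CD271high C was near background, and within beadchip 1 its adjusted p was 0.24. For dendritic cells 9 of 12 genes were filtered. Bst2, a membrane protein induced by interferon, was higher (2.68 ± 0.38), Zbtb46, a transcription factor of dendritic cells, was lower (-1.24 ± 0.25, with an adjusted p of 0.051 within beadchip 1), and Siglech did not pass. Among osteoclast genes 5 were filtered. Tnfrsf11a, the receptor RANK, was at least 5.00-fold higher, Ctsk, cathepsin K, differed by 1.74 ± 0.38, and Nfatc1, a transcription factor, by -0.99 ± 0.20. Within beadchip 2 Ctsk was 1.95 with an adjusted p of 0.15, and Nfatc1 passed within neither beadchip.

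Receptor and signalling genes of phagocytes followed the identity genes. Of the Fc receptor and ITAM signalling genes 16 of 18 were higher and 2 did not pass (median 3.57, or 2.30 at the bound). Of the 18, 12 were detected on no HC array, so the count is a description. Tyrobp, the adaptor DAP12, was at least 19.8-fold higher, Fcgr2b, the inhibitory Fc receptor, at least 15-fold, and Vav1, an exchange factor for Rac, differed by 5.24 ± 0.36 (adjusted p = 1.4e-07). For Vav1 the HC arrays read 5.96, 6.01, 5.82 and 7.34, with HC D the highest. Toll-like receptor and innate sensing genes were higher in 20 of 22 cases and lower in 2 (median 2.49, or 1.41 at the bound). Of the 22, 13 were detected on no HC array. Casp1, the inflammasome protease, was at least 24.4-fold higher, Ly86, the partner of the receptor Cd180, at least 37.9-fold, Cd14, the lipopolysaccharide co-receptor, at least 15.8-fold and Tlr7, a sensor of single-stranded RNA, at least 12.4-fold. The lower genes were Nod2, a sensor of bacterial wall fragments (at least 1.25-fold, adjusted p = 5.2e-05), and Irak2, a kinase of the same pathways (-0.65 ± 0.24), whose call ended without any of HC A, HC B, HC C, CD271high B or CD271high C (adjusted p up to 0.14) and within either beadchip.

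Complement genes were higher in 7 of 8 cases (median 2.63, or 2.47 at the bound). Beside the C1q subunits, Serping1, the C1 inhibitor, was detected on no HC array and was at least 7.49-fold higher (adjusted p = 3.5e-07). Of the 18 chemokine genes tested, 11 were detected on no HC array. Chemokine genes were higher in 16 of 18 cases (median 3.69, or 2.31 at the bound), among them Ccl12 at 6.21 ± 0.47. Cxcl14, a chemokine made by epithelia, was the exception. It read 12.51, 12.18, 12.33 and 12.40 on HC A to D and 5.83, 5.48 and 5.36 on CD271high A to C, was detected on no CD271high array and was at least 46.2-fold lower (adjusted p = 3.3e-11). GER and DC were at 5.57 and 5.84, below the hair cells as well.

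Antigen presentation, lysosome and lipid genes were higher in most cases. For antigen presentation 11 of 14 were higher, 1 lower and 2 did not pass (median 1.85, or 1.27 at the bound). Cd86, a co-stimulatory ligand, was at least 16.2-fold higher, B2m, the light chain of MHC class I, differed by 3.26 ± 0.18 and Cd74, the invariant chain of MHC class II, was at least 3.53-fold higher. The lower gene, Cd40, was detected on 2 HC arrays and no CD271high array and was at least 1.09-fold lower. Its call ended without HC B, HC D, CD271high A or CD271high B (adjusted p up to 0.1) and within either beadchip (adjusted p = 0.49 and 0.096). Lysosome genes were higher in 26 of 33 cases and lower in 1 (median 1.17, or 1.12 at the bound). Ctss, cathepsin S, was at least 8.59-fold higher, Ctsh, cathepsin H, differed by 3.01 ± 0.29 and Grn, progranulin, by 2.63 ± 0.12 (adjusted p = 4.0e-09). The lower gene, Atp6v1a, a proton pump subunit, differed by -0.82 ± 0.28 and lost its call without HC A, HC B, CD271high B or CD271high C (adjusted p up to 0.093) and within beadchip 2, where it was -0.39 (adjusted p = 0.47). Phagocytosis genes were higher in 13 of 15 cases (median 1.95, or 1.02 at the bound), with Gas6, a bridging ligand for dying cells, at 2.57 ± 0.22. Lipid and iron genes were higher in 14 of 18 cases and lower in 1 (median 2.84, or 2.33 at the bound). Apoe, apolipoprotein E, read 9.29, 8.94, 8.89 and 9.39 on HC A to D and 13.48, 13.80 and 13.85 on CD271high A to C and differed by 4.58 ± 0.20, and Slc40a1, the iron exporter ferroportin, differed by 4.18 ± 0.25. Lpl, lipoprotein lipase, was at least 12.7-fold higher. Abcg1, a sterol exporter, was lower by 5.44-fold (adjusted p = 4.5e-06).

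Leukocyte adhesion and cytoskeleton genes were higher in 18 of 22 cases and lower in 2 (median 3.59, or 2.21 at the bound). Of the 22, 10 were detected on no HC array. Arhgdib, an inhibitor of small GTPases in blood cells, read 6.19, 6.45, 5.97 and 9.0 on HC A to D and 12.55, 12.38 and 12.79 on CD271high A to C and differed by 5.67 ± 0.57. HC D lay well above HC A to C but below every CD271high array, and without it the difference was 6.37. Coro1a, an actin-binding protein of leukocytes, differed by 5.49 ± 0.38, and Was, the Wiskott-Aldrich protein, was at least 15.8-fold higher. The lower genes were Pstpip1, a partner of that protein, at -1.73 ± 0.35, and Cd44, a hyaluronan receptor, at -1.23 ± 0.40. Pstpip1 was -1.95 within beadchip 2 (adjusted p = 0.071), and Cd44 lost its call without HC A, HC B or CD271high C (adjusted p up to 0.088) and within beadchip 2 (adjusted p = 0.22). NADPH oxidase and oxidant defence genes were higher in 8 of 13 cases and lower in 1 (median 1.05, also at the bound). Ncf4, an oxidase subunit, was at least 8.97-fold higher and Cyba, another, differed by 3.02 ± 0.19. The lower gene was Txnrd1, thioredoxin reductase (-2.35 ± 0.16, adjusted p = 1.1e-07). Interferon-induced genes were higher in 15 of 17 cases (median 2.17, or 1.61 at the bound), led by Ifit2, at least 7.20-fold, and Ifi27l2a at 3.74 ± 0.26.

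Transcription factors of the myeloid lineage were higher in 15 of 18 cases and 3 did not pass (median 1.46, or 1.29 at the bound). Spi1, which encodes PU.1, read 8.89, 8.64 and 8.77 on CD271high A to C and was detected on no HC array, at least 3.13-fold higher (adjusted p = 6.6e-07). Irf5, a factor downstream of Toll-like receptors, was at least 6.53-fold higher and Irf8, a factor of macrophage development, at least 4.33-fold. Ikzf1, Ikaros, was at least 2.53-fold higher. Mef2c differed by 4.14 ± 0.35, with both groups apart on every array. Zeb2, a repressor, differed by 3.05 ± 0.73, but HC D read 9.85 against 7.45, 6.93 and 5.52 on HC A to C, and within beadchip 2 the difference was 3.02 with an adjusted p of 0.24. Only 8 of the 15 passed within beadchip 1, which holds 1 HC array. Genes of Csf1r and Tgfb signalling were higher in 12 of 14 cases and lower in 1 (median 1.51, or 1.46 at the bound). Il10ra, an interleukin-10 receptor chain, was at least 6.02-fold higher, Tgfb1 differed by 3.23 ± 0.34 and its receptor Tgfbr2 by 3.16 ± 0.20. The lower gene was Stat3 (-1.29 ± 0.19), at -0.95 within beadchip 2 (adjusted p = 0.052).

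Hair cell genes were lower in CD271high cells, 37 of 40 tested, with 1 higher and 2 not passing (median -4.49, or -3.86 at the bound). Of the 40, 22 were detected on no CD271high array, so the count is a description, beside 26.7% lower over all genes. Otof, otoferlin, the calcium sensor of the ribbon synapse, had the most negative difference of the named genes. It read 14.96, 14.94, 14.85 and 14.94 on HC A to D and 5.89, 5.50 and 5.87 on CD271high A to C and was at least 273-fold lower (adjusted p = 8.1e-11). The HC arrays lay close together, and no CD271high array detected it. Chrna10, a subunit of the acetylcholine receptor that receives efferent input, read 14.27, 14.39, 14.35 and 14.56 on HC A to D and 5.85, 5.87 and 5.91 on CD271high A to C, at least 189-fold lower, and its partner Chrna9 was at least 83.5-fold lower. Espnl, an actin-bundling protein of stereocilia, was at least 104-fold lower, Grxcr2, another stereocilia protein, at least 69.1-fold, and Fgf8, a growth factor of inner hair cells, at least 68.6-fold. Calb2, calretinin, and Pvalb, parvalbumin, both calcium buffers, were detected on all 7 arrays and were lower by 190-fold and 147-fold (adjusted p = 3.3e-11 and 1.5e-09).

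Other genes among the 15 lowest are less tied to the hair bundle. Gng8, a G protein gamma subunit, was at least 163-fold lower, Ap3b2, a vesicle adaptor subunit of neurons, at least 96.0-fold, and Cpne9, a copine, at least 93.3-fold. Chrna1, the muscle acetylcholine receptor subunit, was at least 85.0-fold lower. Grp, gastrin-releasing peptide, was at least 66.3-fold lower, Mslnl at least 83.5-fold, Mmp24, a metalloproteinase, at least 81.7-fold, and Ccl21a, a chemokine, at least 86.9-fold, with adjusted p of 6.2e-11, 3.5e-09, 1.6e-10 and 3.5e-10. Ccl21a has near-identical copies in the genome that its probe may not separate.

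Some listed hair cell genes went another way, and they were picked out after their values were seen. Otoa, otoancorin, which anchors the tectorial membrane, read 13.06, 12.83, 12.68 and 12.78 on HC A to D and 15.13, 15.12 and 15.30 on CD271high A to C. It was 5.07-fold higher in CD271high cells (adjusted p = 8.0e-08), with GER and DC at 14.04 and 14.26. Every HC array lay below these means too, so the level of Otoa did not mark hair cells here. Pcdh15, a tip link protein, did not pass (-0.69 ± 0.30, adjusted p = 0.074), though it passed without HC C or without CD271high A. Myo7a, the myosin of stereocilia, was lower by 14.7-fold (adjusted p = 6.5e-08). It nevertheless read 9.04, 8.67 and 9.36 on CD271high A to C and was detected on all 3, against 5.47 in GER and 6.03 in DC.

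Ribbon synapse and vesicle genes were lower in 16 of 21 cases, higher in 2 and did not pass in 3 (median -1.77, or -1.71 at the bound). Rims2, a protein of the active zone, was at least 22.4-fold lower, and Cacnb2, a calcium channel subunit, at least 7.77-fold. Cplx1, complexin, differed by -5.93 ± 0.25, Syp, synaptophysin, by -4.22 ± 0.15 and Sv2a, a vesicle glycoprotein, by -3.38 ± 0.21. The 2 higher genes were Syngr1, synaptogyrin (2.29 ± 0.18, adjusted p = 4.5e-07), and Syt11, a synaptotagmin (0.63 ± 0.14), which passed within neither beadchip. Transcription factors of hair cells were lower in 12 of 16 cases, higher in 1 and did not pass in 3 (median -1.66, or -1.29 at the bound). Gfi1 read 13.05, 13.05, 13.31 and 12.82 on HC A to D and 6.27, 6.09 and 6.27 on CD271high A to C and was at least 75.0-fold lower. Barhl1 was at least 38.9-fold lower, Pou4f3 at least 10.8-fold and Insm1 at least 6.71-fold, and Lhx3 differed by -4.36 ± 0.23. The higher gene was Ikzf2, Helios, at least 1.57-fold (adjusted p = 0.0012).

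Markers of other cochlear cells also differed between the groups. Their counts, here and in the next paragraphs, stand beside 28.3% higher and 26.7% lower over all genes. Schwann cell and satellite glia genes were higher in 9 of 14 cases, lower in 2 and did not pass in 3 (median 1.63, also at the bound), and their summed intensity was 102800 to 124000 on the CD271high arrays against 24850 to 60200 on the HC arrays. Mbp, myelin basic protein, read 8.05, 9.63, 8.54 and 12.18 on HC A to D and 14.94, 14.61 and 14.52 on CD271high A to C. HC D stood between HC A to C and the CD271high arrays. The difference was 5.09 ± 0.74 (adjusted p = 9.3e-05), or 5.95 without HC D. Pmp22, another myelin protein, differed by 4.57 ± 0.70, Prx, periaxin, by 4.27 ± 0.57 and Egr2, the transcription factor of myelination, by 3.67 ± 0.61. Within beadchip 2, where HC D is 1 of 3 hair cell arrays, 1 gene of the list was called higher. There Mbp was 4.83 with an adjusted p of 0.062, and Pmp22, Prx and Egr2 had adjusted p of 0.079, 0.061 and 0.072. The 2 lower genes were Ngfr and S100b, a calcium-binding protein (at least 2.31-fold lower). The part of glial RNA in the macrophage and hair cell results was not tested. The macrophage list was called in full with and without HC D, which does not bear on the glial signal of the CD271high arrays.

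Epithelial genes were higher in 14 of 24 cases, lower in 4 and did not pass in 6 (median 0.74, or 0.729 at the bound). Krt19, a keratin, read 7.47, 7.69, 7.97 and 7.40 on HC A to D and 11.71, 11.64 and 12.19 on CD271high A to C and was 18.5-fold higher (adjusted p = 1.7e-09), with GER at 10.46 and DC at 9.81. Cldn4 and Cldn3, claudins of tight junctions, differed by 1.83 ± 0.18 and 1.5 ± 0.12. Cdh1, E-cadherin, read 12.16, 12.49, 12.26 and 12.39 on HC A to D and 12.14, 12.28 and 12.30 on CD271high A to C and did not pass (adjusted p = 0.61), so the CD271high arrays carried as clear a signal for it as the hair cells. The lower genes were Cldn14, a claudin of the organ of Corti (-3.23 ± 0.19), Ap1m2 (-1.57 ± 0.14), Spint2 (-1.14 ± 0.22) and Tjp3 (-1.03 ± 0.26). Spint2 did not pass within beadchip 2 (adjusted p = 0.093) and Tjp3 within neither beadchip. Supporting cell genes were lower in 15 of 25 cases, higher in 2 and did not pass in 8 (median -0.68, also at the bound). Hes5, a Notch target, differed by -3.14 ± 0.35, Prox1 by -2.84 ± 0.39, Heyl by -2.83 ± 0.27, Jag1, a Notch ligand, by -2.61 ± 0.29 and Gjb6, connexin 30, by -2.38 ± 0.17. The 2 higher genes were Sox9 (1.04 ± 0.17) and Epyc, epiphycan (1.39 ± 0.37), at 0.86 and 0.92 within beadchip 2 (adjusted p = 0.071 and 0.18).

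Mesenchymal genes were higher in 11 of 19 cases and lower in 2 (median 0.995, or 0.396 at the bound), with a summed intensity of 31560 to 45200 on the HC arrays and 54150 to 57690 on the CD271high arrays. Col3a1, a collagen, read 6.22, 7.34, 6.03 and 10.65 on HC A to D and 10.54, 10.77 and 11.07 on CD271high A to C and differed by 3.23 ± 0.87. HC D lay at the level of the CD271high arrays, and within beadchip 2 the difference was 2.53 (adjusted p = 0.35). The lower genes were Pdgfra, a growth factor receptor (-2.02 ± 0.16), and Thy1, a surface glycoprotein (at least 1.56-fold lower). Endothelial and pericyte genes were lower in 10 of 19 cases and higher in 1 (median -1.22, or -0.153 at the bound), with sums of 10340 to 26120 and 9158 to 10680. Cldn5, the claudin of vessels, read 11.36, 10.83, 8.52 and 11.84 on HC A to D and 6.41, 7.14 and 6.95 on CD271high A to C and differed by -3.80 ± 0.75, with -3.99 and an adjusted p of 0.08 within beadchip 2. Esam differed by -2.96 ± 0.70 and Flt1, a receptor for vascular growth factor, by -2.72 ± 0.48, and HC C was the lowest HC array for all 3. Within beadchip 2 these differences were -3.02 and -3.09 (adjusted p = 0.13 and 0.06). The higher gene was Des, desmin (adjusted p = 0.0065, or 0.15 within beadchip 2), which was detected on no HC array and has no bound above 1-fold. Neuron genes were lower in 7 of 12 cases (58.3%) and higher in 3 (25%), with a median of -1.32, or -0.919 at the bound. Over all genes 26.7% were lower and 28.3% higher, so the share of higher neuron genes was near that of all genes. Nefm, a neurofilament, was at least 35.1-fold lower and Chga, chromogranin A, at least 15.3-fold. The higher genes were Dcx, doublecortin (at least 2.89-fold), Gap43, a growth cone protein (1.39 ± 0.45), and Mapt, tau (0.92 ± 0.33). Gap43 lost its call without HC A, HC B, CD271high A or CD271high C, and Mapt without HC A, HC B or any single CD271high array (adjusted p up to 0.072 and 0.09). Within beadchip 2 they were 1.32 and 0.59 (adjusted p = 0.29 and 0.33). In the melanocyte list Ptgds, a prostaglandin synthase, was higher (3.12 ± 0.27) and the other 2 tested genes did not pass. In the erythroid list Itga2b, a platelet integrin, was at least 1.42-fold higher (adjusted p = 0.017, 0.062 without CD271high A and 0.09 within beadchip 1) and the other 2 did not pass.

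Cell cycle genes were higher in 21 of 23 cases, beside 28.3% of all genes (median 1.74, or 1.63 at the bound). Cdk1, the kinase of mitotic entry, read 5.47, 6.22, 5.69 and 7.98 on HC A to D and 10.18, 10.54 and 10.70 on CD271high A to C. HC D lay above HC A to C, and the groups did not overlap. The difference was 4.13 ± 0.52 (adjusted p = 2.9e-05), or 4.68 without HC D. Ccnb1, cyclin B1, differed by 3.81 ± 0.56, Top2a, a topoisomerase, by 3.12 ± 0.43 and Mcm5, a replication helicase subunit, by 2.81 ± 0.40. Within beadchip 2 the count was 5 of 23, and Ccnb1, Top2a and Mcm5 had adjusted p of 0.11, 0.078 and 0.11.

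**Figure D3:**
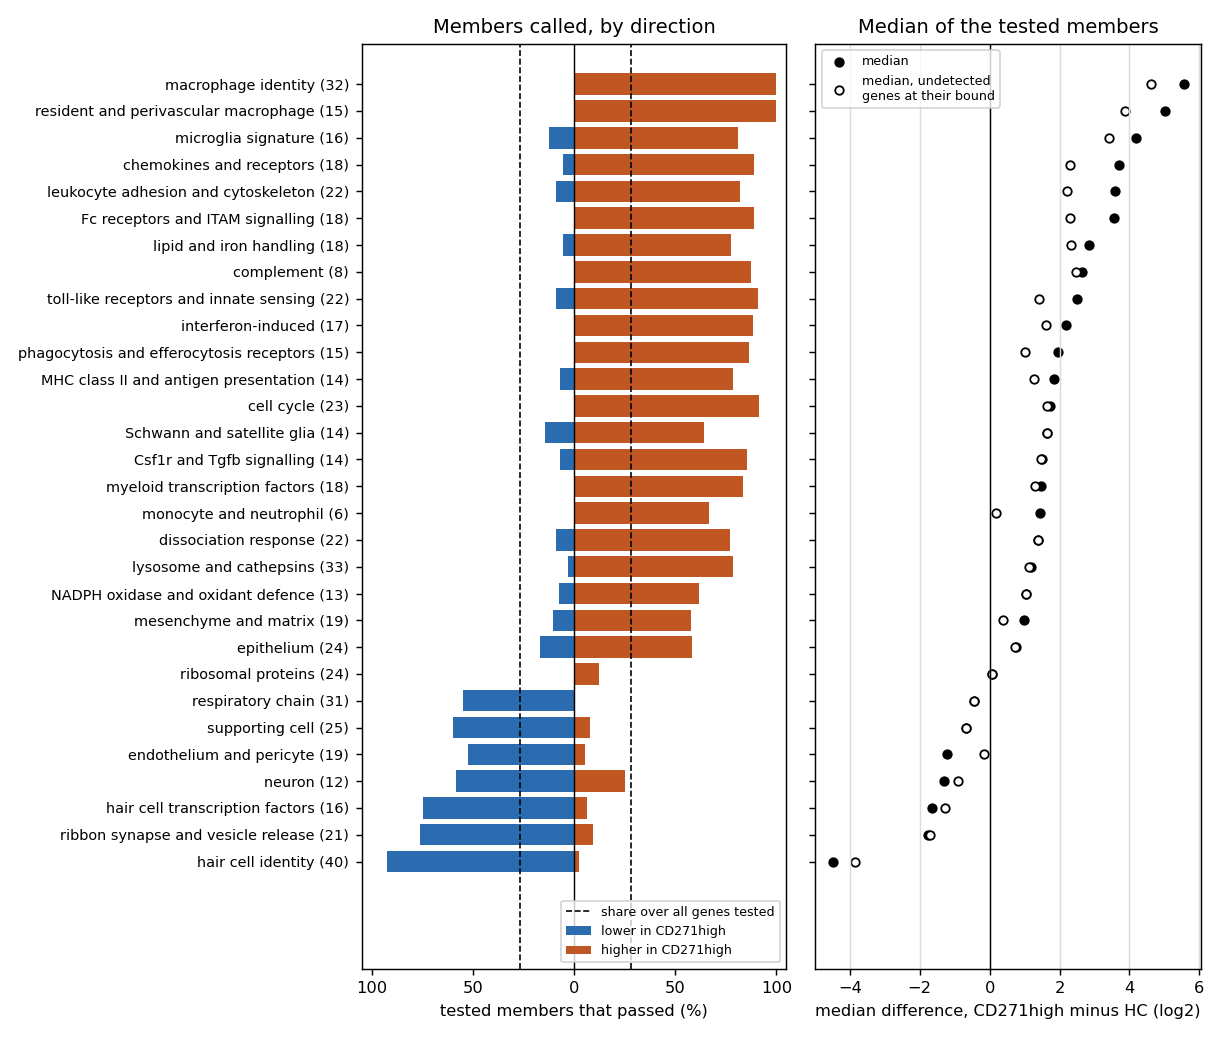
Left, percent of tested members of each list (y axis) that were called higher or lower in CD271high cells, with dashed lines at the shares over all genes, 28.3% and 26.7%. Right, the median difference of each list (log2) with and without undetected genes at their bound. Macrophage, Fc receptor and chemokine lists stand at the higher end and hair cell lists at the lower end.

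Dissociation response genes, which immediate-early signalling and heat shock raise, were higher in 17 of 22 cases and lower in 2 (median 1.39, also at the bound). The shares over all genes were 28.3% and 26.7%. Ier3 read 9.35, 9.83, 8.87 and 10.01 on HC A to D and 12.60, 12.66 and 11.63 on CD271high A to C and differed by 2.78 ± 0.30 (adjusted p = 8.0e-06). Zfp36, an RNA-binding protein, differed by 2.51 ± 0.35 and Fosb, an AP-1 subunit, by 2.25 ± 0.53. For Fosb CD271high B was the highest and HC C the lowest array, at 11.47, 13.19 and 11.46 and 9.77, 10.81, 8.59 and 10.02. The count fell to 11 without CD271high A and to 10 without CD271high B, and was 6 within beadchip 2, where Fosb had an adjusted p of 0.22. The lower genes were Btg2, an early response gene (at least 3.53-fold), and Hsp90aa1, a chaperone (-1.66 ± 0.20). The part of this response in the other results was not tested.

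HC D stood apart from the other hair cell arrays. It had 408 genes more than 2-fold above and 237 more than 2-fold below the mean of the other 3, against 102 and 156 for HC A, 53 and 76 for HC B and 149 and 277 for HC C. Among the genes farthest above were Rgs5, a pericyte gene, at 10.14 against 5.61, 5.45 and 5.43 on HC A to C, and Col3a1. They went with Bcas1, a myelin protein (3.78 above the mean of HC A to C), Dhh, the hedgehog ligand of Schwann cells (3.56), Abca8a (3.51), Pbk, a mitotic kinase (3.42), Pou3f1, a Schwann cell factor (3.36), Mbp and Pmp22. Among the lowest was Srd5a1, a steroid reductase (-2.16). These genes were chosen for HC D's own values, so the values are descriptions.

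By list, HC D exceeded the mean of HC A to C by 1.53 for Schwann genes, by 1.25 for cell cycle genes, where it was the highest HC array for 21 of 23, by 1.20 for endothelial and pericyte genes (15 of 19) and by 0.873 for mesenchymal genes (13 of 19). For macrophage genes the excess was 0.497, with HC D highest for 21 of 32. For hair cell genes it was -0.176, with HC D highest for 8 of 40 and Pou4f3 at -1.06. The single BM array, which samples cells below the basilar membrane, read 12.26 for Rgs5, 15.04 for Mbp and 13.50 for Col3a1, above HC D in each case. The macrophage identity genes with the largest differences were divided. On the BM array C1qc (5.26), Csf1r (6.82), Fcer1g (6.96) and Mrc1 (6.39) read below HC D. Lyz2 (7.34) and Fcgr3 (6.21) read above HC D. Whether cells of that region entered HC D was not tested.

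**Figure D4:**
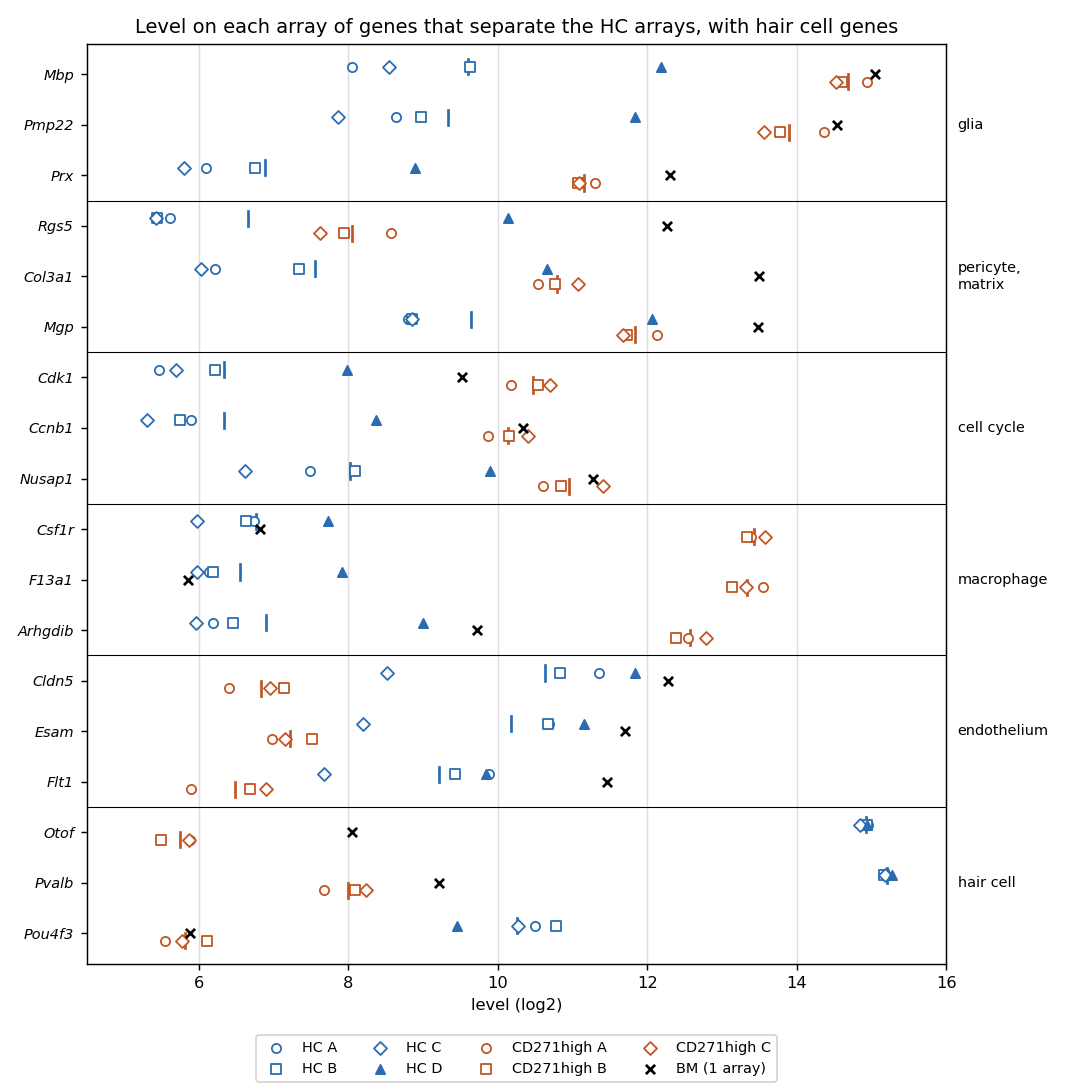
Log2 level (x axis) of myelin, pericyte and matrix, cell cycle, macrophage, endothelial and hair cell genes on each HC array (blue, HC D filled), each CD271high array (orange) and the BM array (cross), with a short line at each group mean. HC D lies to the right of HC A to C for myelin and matrix genes and with them for Otof and Pvalb. For Pou4f3 it lies to their left, at 9.46 against 10.50, 10.78 and 10.27.

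Leaving out HC D changed few of the calls. Without it 5449 genes passed, 2842 higher and 2607 lower, and at least 2-fold differences numbered 1773 and 1515. Of the 5551 calls with 4 hair cell arrays, 5198 were kept in the same direction, 353 were lost (163 higher and 190 lower) and 251 genes were gained (147 higher and 104 lower). No gene was called in opposite directions. The lost genes had small differences, with a median size of 0.507 and a highest of 1.90, and the gained genes a median of 0.618 and a highest of 2.57. The median SE was 0.201 without HC D and 0.199 with it. With the beadchip as a block as well, 2880 and 2672 genes passed.

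The largest gains were genes on which HC D itself was high. Rgs5 differed by 1.39 ± 0.94 with all arrays (adjusted p = 0.23) and by 2.55 without HC D (adjusted p = 1.7e-05). Vtn, vitronectin, went from 1.03 ± 0.60 to 1.75 (adjusted p = 0.17 and 1.6e-04), Emcn, an endothelial sialomucin, from 1.37 ± 0.56 to 1.81, Ifitm3, an antiviral membrane protein, from 1.53 ± 0.66 to 2.12, and Tubb6, a tubulin, from 1.92 ± 0.78 to 2.57. Cav1, caveolin, was gained too (1.56, adjusted p = 0.016), and also when HC A was left out. Among the lost calls with the largest differences, Slc38a5, an amino acid transporter, went from -1.90 ± 0.70 to -1.59 (adjusted p = 0.037 and 0.086). Atf3, Hspa1a and Hspb1, stress genes, Slc6a15, a transporter, and Col4a3, a collagen, had adjusted p of 0.055, 0.061, 0.083, 0.05 and 0.12 without HC D. Each of these 6 lost calls also ended when at least 2 other arrays were left out in turn, and within at least 1 beadchip.

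**Figure D5:**
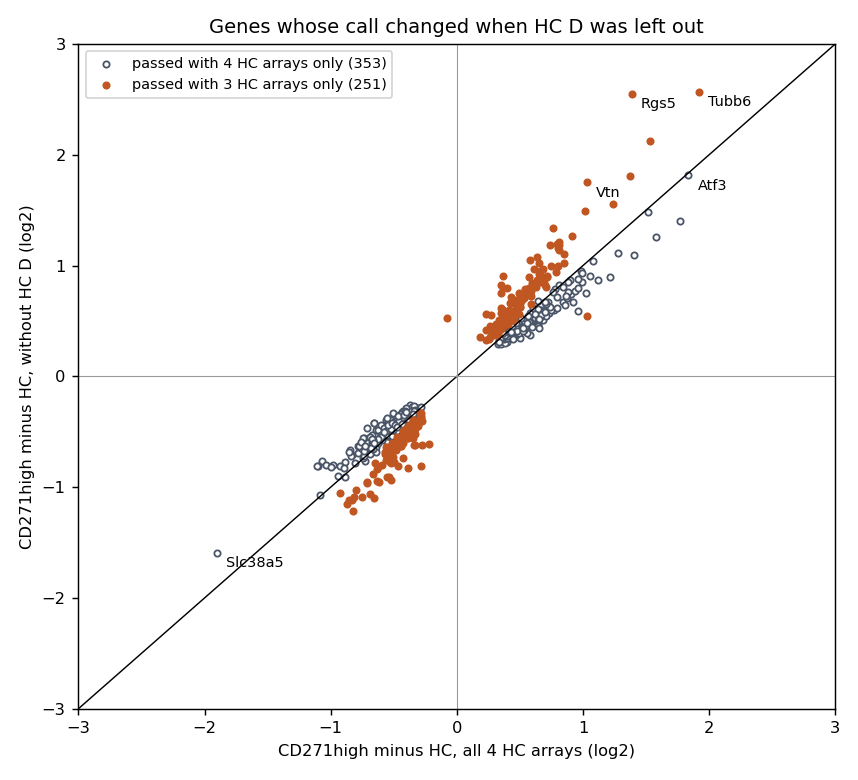
Difference between CD271high and HC with all 4 hair cell arrays (x axis, log2) and without HC D (y axis, log2) for the 353 genes that passed only with HC D and the 251 that passed only without it. All points but 1, gained without HC D, keep their sign, and Rgs5 lies farthest from the diagonal among the labelled genes.

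Without HC D the list counts were 32 of 32 for macrophage genes, 15 of 15 for resident macrophage genes, 37 of 40 lower for hair cell genes, 21 of 23 for cell cycle genes and 14 of 21 lower for ribbon synapse genes. Schwann genes were called higher in 10 of 14 cases in place of 9, mesenchymal genes in 13 of 19 in place of 11, and endothelial and pericyte genes in 5 of 19 in place of 1. Over all 10088 genes, 2842 were called higher and 2607 lower without HC D, against 2858 and 2693 with it. Mbp was 5.95, Csf1r 6.98 and C1qc 7.69 without HC D, each with the direction it had with all arrays.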

How the data were processed

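RNA of sorted cells was hybridised to Illumina mouse BeadChips. Per the file headers, the deposited scanner table holds the mean bead intensity and a detection p-value for each of 25697 probes, not normalized between arrays. A second deposited table holds log2 values that the authors quantile normalized, with the ranks of the scanner signal, and it served as an alternative. The scanner software is not given in the sources used here.

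Intensities of the 13 arrays were background-corrected and quantile normalized with neqc (limma 3.58.1 in R 4.3.3, offset 16), with a normexp fit to the detection p-values. A probe was kept if its detection p-value was under 0.01 on at least 2 arrays. This kept 13192 probes and 10088 of 18038 genes, each represented by its kept probe with the highest mean. RefSeq names (GRCm38.p6) replaced the file's symbols for 24358 probes, and 1339 kept the file's symbol. A linear model with a mean for each of the 5 populations was fitted to all 13 arrays with lmFit and eBayes (8 residual and 3.7 prior degrees of freedom), and the contrast was CD271high minus HC with Benjamini-Hochberg adjustment over 10088 genes. Arrays give no counts, so their number limits the precision, with a median SE of 0.199. Data were simulated over 10088 genes with 100 genes shifted by 1, 100 shifted by 2 on the log2 scale and no difference in the rest. The test found 69% of genes shifted by 1 and 94% of genes shifted by 2, with 12 false calls. In the real comparison 55% of genes passed, so these figures need not hold there.

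A gene with no detected probe on any array of a group has only a bound there. The bound is the mean of the other group over, per array, the higher of the gene's own level and the lowest level among detected probes (6.764 to 7.347 on these arrays).

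The 36 gene lists hold 785 genes, of which 548 were tested. The members and lists were chosen with earlier results of these data known. Named were the 15 genes with the largest difference in each direction, up to 6 per list with the largest differences, the sort markers, the genes on which HC D lay farthest from the other HC arrays, and the genes whose call changed most without it. The 15 were taken among genes that passed, whose groups did not overlap on any array, and whose name was no clone, locus or predicted name. Their lack of overlap was thus set by the choice. Exceptions to a list's direction, and Laptm5, C1qb, C1qa, Fcna, Cd79b, P2ry12, Tmem119, B2m, Myo7a, Cdh1, S100a8, Apoe and Siglech, were named after their values were seen. Some genes that these rules select are not reported here, and the list counts include them. Alternatives were median scaling, no background correction, the authors' values, other filters and probe rules, the beadchip or the replicate letter as a block, each beadchip alone, array weights, a test against a fold of 1.5, and each array left out in turn. The fit without HC D and with the beadchip as a block was added after seeing the data.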

Additional observations from a re-analysis of the deposited data

Results flagged for a closer look

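Among the 189 named genes and 30 lists, each HC array was compared with the other 3 by the share of the group's range that separates it from its nearest neighbour, and shares above Dixon's critical value for 4 samples are given here. Chance alone gives about 1 in 20 (5%), and 14 genes (7.41%) and 2 lists exceeded it. HC D was the separate array for 9 of the genes, HC C for 3, HC A for 2 and HC B for 0. The named genes include some chosen because HC D lay far from the other HC arrays or because their call changed without it, among them Rgs5, Abca8a and Srd5a1, so that choice sets part of these counts.

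On HC D, the share was 0.961 for Rgs5, 0.945 for Abca8a, 0.894 for F13a1, 0.892 for Was, 0.874 for Vav1, 0.847 for Mcm5 and 0.84 for Arhgdib, all higher on that array. It was 0.923 for Espnl and 0.834 for Srd5a1, both lower. The mean of the mesenchyme and matrix list was higher on HC D, with a share of 0.924.

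On HC C, Chrna9 (0.944) and Esam (0.836) were lower and Lck (0.864) was higher, and the mean of the myeloid transcription factor list was lower (0.912). On HC A, Thy1 (0.893) and Grp (0.85) were higher.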

How the results depend on the processing

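Of the 178 named genes that passed, 124 passed under all 22 alternatives in which they were tested. With median scaling 2659 genes were higher and 2735 lower, so that there, and within beadchip 2, more genes were lower than higher, against 2858 and 2693. Without background correction, and equally with the authors' values, genes at least 2-fold higher and lower numbered 1074 and 987. Within beadchip 2 the test called 1260 genes higher and 1376 lower, and within beadchip 1 2174 and 1903, with fewer arrays in each. Against a fold of 1.5 it called 1470 and 1347. Epithelial genes were called higher in 8 cases within beadchip 2 and in 9 against a fold of 1.5, and cell cycle genes in 5 within beadchip 2.

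Leaving out each array in turn gave 2546 to 2842 higher and 2399 to 2621 lower genes, 1660 to 1773 and 1463 to 1543 of at least 2-fold, 37 to 38 hair cell and 14 to 17 ribbon synapse genes lower, and 32 macrophage, 15 resident macrophage, 13 to 14 epithelial and 19 to 21 cell cycle genes higher. The median of the ribosomal proteins turned to -0.070 with median scaling and that of the neuron list to 0.0091 with no filter on dim probes. Cdh1 turned to 0.14 within beadchip 1. It passed in neither direction, and the cause of these turns was not tested.

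With the replicate letter as a block 2858 genes were higher and 2628 lower. Deviations of samples with the same letter correlated at -0.126, 0.0502 and 0.00755 for A, B and C. Each of these pairs lies across the 2 beadchips, so the correlations cannot decide whether the letters pair the samples. HC D, with no partner, drops out of that fit. With the beadchip as a block 2812 and 2687 genes passed. Probes near background limit what can be said of low genes, whose differences are bounds.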

Other observations

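Genes of the respiratory chain were lower in CD271high cells in 17 of 31 cases and did not pass in 14 (median -0.434), against 26.7% of all genes. Ndufb9, a complex I subunit, read 11.46, 10.75, 10.90 and 10.71 on HC A to D and 9.60, 9.66 and 9.95 on CD271high A to C and differed by -1.22 ± 0.20 (adjusted p = 3.0e-04). Cox7a2, a subunit of cytochrome oxidase, differed by -1.19 ± 0.23 and Cycs, cytochrome c, by -1.33 ± 0.25. Within beadchip 2 the list's count was 4 and Cycs was -1.09 with an adjusted p of 0.11. Within beadchip 1 the count was 8. HC A was the highest array for all 3 genes.

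Ribosomal protein genes were close between the groups, with 21 of 24 not passing and 3 higher (median 0.0528). The 3 were Rplp0 (0.75 ± 0.18), Rps6 (0.50 ± 0.17) and Rps9 (0.48 ± 0.14). Rps6 lost its call without HC A, HC D, CD271high A or CD271high C (adjusted p up to 0.077). Within beadchip 2 none of the 24 was called and within beadchip 1 there was 1.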
